A study of Homo sapiens with 6 samples.

Results

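Ubiquitin and proteasome genes were examined as a set of 161 genes among 19866 protein-coding genes of the RefSeq gene table for GRCh38. They were chosen by symbol: PSMA to PSMG followed by a digit, UBE2, CUL followed by a digit, UCHL, OTU, and USP followed by a digit without the USP17L copies. The rule used no measured value. It gave 50 proteasome genes, 36 conjugating enzyme genes, 8 cullin genes and 67 deubiquitinase genes. PSMC3IP, PSME3IP1 and USP6NL match a symbol without encoding a proteasome subunit or a deubiquitinase. They were kept, and the main proteasome counts are also given without them.

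Ubiquitin is a small protein that cells attach to other proteins, most often to mark them for destruction. An activating enzyme passes it to a conjugating enzyme (E2), and a ligase then places it on the target. Cullins are the scaffolds of a large family of such ligases, and deubiquitinases remove the tag. The 26S proteasome reads the tag and degrades the protein: its 19S cap binds and unfolds the substrate, and its 20S barrel of alpha and beta rings cuts it. Liver cells depend on this system for protein quality control, and several of its deubiquitinases act on chromatin.

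The measurements are CUT&Tag libraries, in which a transposase tethered by an antibody cuts and tags DNA next to the antibody's target. All 6 came from HepG2, an established line of hepatocellular carcinoma cells, and the labels give no treatment or genetic change for any of them. Antibodies were to ENO1 (enolase 1, a glycolytic enzyme), to H4K12la (lactylation of lysine 12 of histone H4) and to HDAC1 (histone deacetylase 1), with 2 replicates for each target. The series asks how ENO1 and HDAC1 bear on histone lactylation and transcription. Whether the replicates are independent cultures is not stated in the labels, and their spread may therefore be technical only.

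Each library is a list of called peaks, 1395 to 7773 long. A gene is called occupied here by a target when both replicates had a peak within 1 kb of either annotated end of the gene. Fold enrichment is the deposited value of the highest such peak over the peak caller's background in its own library, so folds were compared only within a target. Read depth is unknown, and a missing peak is not proof of missing signal. No control library was analysed here. Among marker genes, H4K12la occupied FOXA1 and HNF4A of 17 hepatocyte genes (11.8%, near the 10.5% of all protein-coding genes). HDAC1 and ENO1 occupied none of the 17. No target occupied any of 6 blood or 7 fibroblast and endothelial markers, sets too small to tell from the background. A peak list does not measure expression, and these counts do not check the cell type.

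H4K12la occupied 33 of the 161 genes, or 20.5% (Wilson 95% interval 15.0% to 27.4%), against 10.5% of all protein-coding genes. HDAC1 occupied 24, or 14.9% (10.2% to 21.2%), against 8.18%. Both targets occupied 9 genes (5.59%, background 3.18%), and 1 or the other occupied 48 (29.8%, background 15.5%). ENO1 occupied none, where its background was 0.0654%, or 13 genes in all. The intervals cover counting error only and treat genes as independent, and no test was made because the set was chosen with results of these data known.

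Counts in single libraries followed the length of each list. H4K12la peaks lay at 40 members in replicate 1 (background 13.5%) and at 56 in replicate 2 (background 19.5%). HDAC1 peaks lay at 45 members in replicate 1 (background 14.8%) and at 26 in replicate 2 (background 10.1%). In all, 78 members had a peak of H4K12la or HDAC1 in at least 1 library, where 29.1% of all genes did, and 83 had none. Of those 78, 30 had neither target in both replicates. Single-replicate calls of H4K12la came mostly from replicate 2 (23 genes against 7), and those of HDAC1 mostly from replicate 1 (21 against 2), the longer list in each case.

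The classes differed in count, although their intervals overlapped. Deubiquitinase genes were occupied by H4K12la at 17 of 67 (25.4%, 16.5% to 36.9%) and by HDAC1 at 13 (19.4%, 11.7% to 30.4%). Proteasome genes were occupied at 11 of 50 (22.0%, 12.8% to 35.2%) and 8 (16.0%, 8.34% to 28.5%); without the symbol-only matches these were 11 and 7 of 48. Conjugating enzyme genes had 3 for each target (8.33%, 2.88% to 21.8%), a share near the background. Cullin genes had 2 of 8 for H4K12la (25.0%, 7.15% to 59.1%) and none for HDAC1, where a count of 0 in 8 genes allows a share of up to 37.5% (3 counts of 8).

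**Figure D1:**
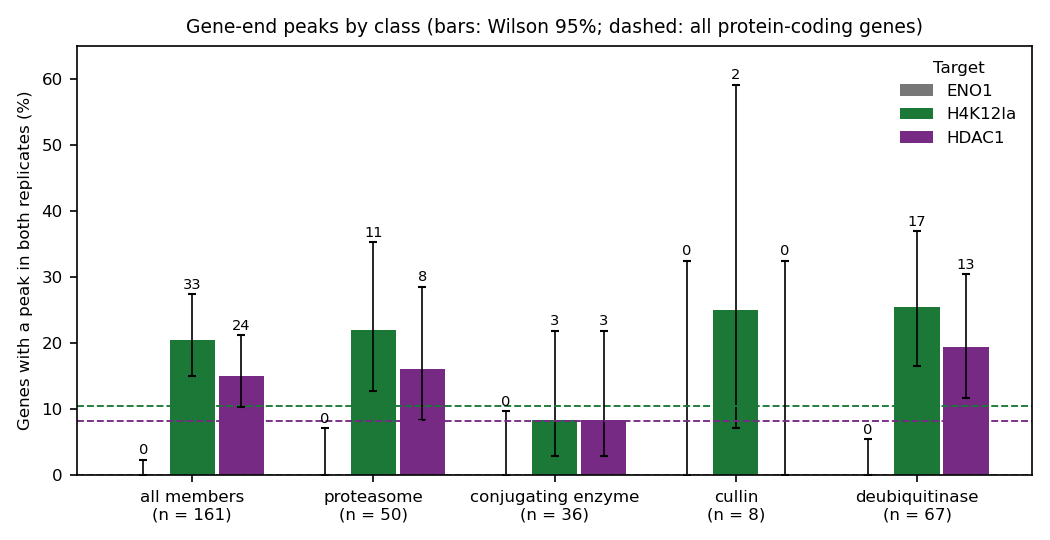
Share of genes with a peak in both replicates within 1 kb of a gene end, in percent, for all 161 genes and each class; bars are ENO1, H4K12la and HDAC1, numbers above are gene counts, whiskers are Wilson 95% intervals and dashed lines are the shares over all protein-coding genes. Deubiquitinase and proteasome genes stand above the H4K12la line of 10.5%, conjugating enzymes lie at 8.33%, and ENO1 is at 0 in every class.

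Replicates supported the deubiquitinase genes most often. Of the deubiquitinase genes with H4K12la in any replicate, 70.8% had it in both (17 of 24), against 46.4% of all genes. For HDAC1 this was 61.9% (13 of 21) against 48.8%. Proteasome genes had 44.0% (11 of 25) and 42.1% (8 of 19), and conjugating enzymes 30.0% (3 of 10) for H4K12la and 3 of 6 for HDAC1. At every occupied member the highest peaks of both replicates overlapped each other, by at least 14 bp for H4K12la (PSMB2) and 186 bp for HDAC1 (USP36).

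Fold enrichment at occupied members was close to that at other occupied genes. The median of the lower replicate was 3.86 for H4K12la at members against 3.84 at all 2077 occupied genes, and 4.85 for HDAC1 against 4.63 at all 1626. By class, deubiquitinase genes had medians of 3.96 (H4K12la) and 5.07 (HDAC1), and proteasome genes 3.82 and 4.54.

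**Figure D2:**
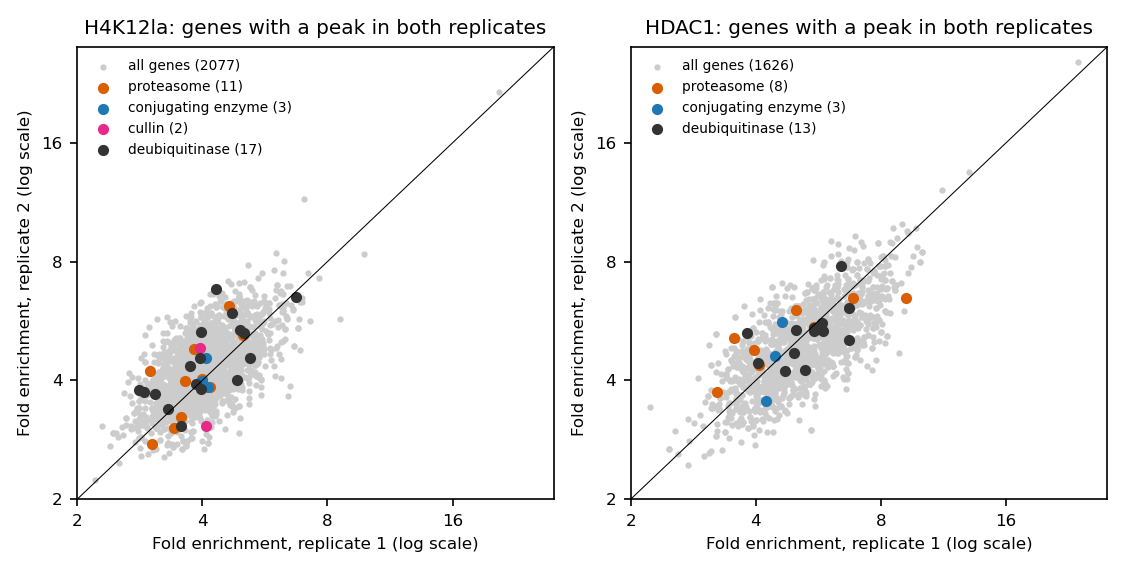
Fold enrichment in replicate 1 (horizontal, log scale) against replicate 2 (vertical, log scale) for genes occupied by H4K12la (left, 2077) and HDAC1 (right, 1626), with members coloured by class and the line of equality drawn. Members lie within the cloud of all genes; UCHL3 (6.71 and 6.50) is the highest member for H4K12la by its lower replicate, and PSME2 (6.85 and 6.47) for HDAC1.

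In the 20S barrel, H4K12la (background 10.5%) occupied 3 of 11 beta subunit genes and none of 8 alpha subunit genes. HDAC1 (background 8.18%) occupied 3 beta genes and 1 alpha gene. In at least 1 replicate, H4K12la (background 22.5%) lay at 6 beta and 4 alpha genes. No difference between the rings was tested, and sets of 8 and 11 genes are too small to set them apart. PSMA2 (4.26) and PSMA3 (2.96) had H4K12la in replicate 2 only and PSMA4 (3.89) in replicate 1 only, and PSMA3 had HDAC1 in replicate 1 (5.65). PSMA1, an alpha gene, had both targets in both replicates at its annotated start, which lies far inside its table ends and outside the rule. PSMB5, the chymotrypsin-like catalytic subunit and a target of proteasome inhibitors (chr14:23025851-23035220), had H4K12la folds of 4.17 and 3.85 in replicates 1 and 2 (mean 4.01 ± 0.229, SD, n = 2) and no HDAC1 peak. PSMB9 and PSMB8, subunits that replace the standard ones in the immunoproteasome, lie beside TAP1, the peptide transporter gene, on chromosome 6. PSMB9 had H4K12la at 3.99 and 4.03, with HDAC1 in replicate 1 only (4.88), at an end it shares with TAP1. PSMB8 showed the reverse, with HDAC1 at 3.96 and 4.77 and H4K12la in replicate 2 only (4.75). The PSMB8 peaks reached the other end of TAP1. PSMB2, a structural beta subunit, had the lowest lower-replicate H4K12la fold of the set (3.03 and 2.75), with HDAC1 in replicate 1 (4.71). PSMB1 had HDAC1 at 3.54 and 5.11 on the side of its neighbour TBP, the TATA-binding protein gene, and PSMB3 at 3.23 and 3.73. PSMA5, the only occupied alpha gene, had HDAC1 at 5.51 and 5.47, a spread of 0.0294 (SD, n = 2), with its summits 105 and 7 bp downstream of the start.

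The 20 genes with PSMC or PSMD symbols encode 19S cap subunits and some of the cap's assembly chaperones. H4K12la occupied 5 of these 20 (11.2% to 46.9%, background 10.5%) and HDAC1 1 (0.888% to 23.6%, background 8.18%). The HDAC1 interval holds its background, and the lower bound for H4K12la lies just above its own. PSMC6, an ATPase of the ring that unfolds substrates (chr14:52707200-52728590), had the highest H4K12la fold of the proteasome genes by its lower replicate, at 5.02 and 5.21 (5.11 ± 0.139, SD, n = 2), with HDAC1 in replicate 1 (5.75). It stood at rank 154 among the 2077 occupied genes. PSMC1, another ATPase of that ring, had no peak in any library. PSMD14, the deubiquitinase built into the cap (chr2:161308425-161411717), had H4K12la at 3.82 and 4.80 (4.31 ± 0.689, SD, n = 2) and no HDAC1. PSMD1, a large scaffold subunit, had 3.63 and 3.99, with summits 15 and 21 bp upstream of its start. PSMD11 had 3.99 in both replicates, with HDAC1 in replicate 1 (4.60), and PSMD7 had 3.56 and 3.23. PSMD9, an assembly chaperone of the cap rather than a lasting subunit, had HDAC1 at 4.08 and 4.37, beside HPD. None of the other PSMC or PSMD genes had HDAC1 in both replicates.

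Among the factors around the core particle, PSMG1 and PSME2 carried both targets. PSMG1 encodes a chaperone that helps the alpha ring assemble (chr21:39174769-39183514) and shares its peaks with BRWD1. Its H4K12la folds were 4.64 and 6.16 (5.40 ± 1.07, SD, n = 2) and its HDAC1 folds 9.19 and 6.45 (7.82 ± 1.94, SD, n = 2), ranks 314 of 2077 and 129 of 1626. PSME2, a subunit of the interferon-inducible PA28 activator (chr14:24143365-24146610), shares its peaks with RNF31, a subunit of the linear ubiquitin ligase. PSME2 had HDAC1 at 6.85 and 6.47, rank 126, and H4K12la near the low end of its list at 3.42 and 3.03. PSME1, its partner in the activator, had H4K12la in replicate 2 only (2.84). PSME3, the nuclear activator, had H4K12la at 2.99 and 4.23. PSME3IP1, which binds PSME3 and is in the set by its symbol only, had HDAC1 at 4.99 and 6.04. It shares these peaks with RSPRY1, and H4K12la was there in replicate 2 only (3.09).

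Promoter sequences from RefSeq (GRCh38.p14, 250 bases before to 50 after a start, read along the gene's strand) are shown for 3 proteasome genes whose peaks differed in kind: PSMG1 with both targets in all 4 libraries (chr21:39183402-39183701, minus strand), PSMB5 with H4K12la alone (chr14:23034851-23035150, minus strand) and PSMB8 with HDAC1 in both replicates (chr6:32844630-32844929, minus strand). Capitals mark matches, on either strand, to the motifs searched: TGACNNNGC (antioxidant response core), CCGGAAG (ETS), GCGCATGCG (nuclear respiratory factor), CTCGCGAG, AAGATGG (YY1), CACGTG (E-box), TGACGTCA (cyclic AMP response) and CCAAT (NF-Y).
PSMG1: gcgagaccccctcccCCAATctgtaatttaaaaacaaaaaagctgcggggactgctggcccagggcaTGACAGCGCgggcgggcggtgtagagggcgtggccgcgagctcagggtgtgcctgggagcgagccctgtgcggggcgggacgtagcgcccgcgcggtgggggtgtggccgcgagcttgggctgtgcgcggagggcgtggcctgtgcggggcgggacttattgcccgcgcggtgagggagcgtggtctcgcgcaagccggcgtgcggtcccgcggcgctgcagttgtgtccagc
PSMB5: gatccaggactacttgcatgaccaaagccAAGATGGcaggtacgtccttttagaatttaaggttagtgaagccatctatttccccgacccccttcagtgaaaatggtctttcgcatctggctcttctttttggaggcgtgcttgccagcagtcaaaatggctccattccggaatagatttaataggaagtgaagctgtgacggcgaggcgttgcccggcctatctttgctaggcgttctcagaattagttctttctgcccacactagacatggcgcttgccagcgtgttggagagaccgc
PSMB8: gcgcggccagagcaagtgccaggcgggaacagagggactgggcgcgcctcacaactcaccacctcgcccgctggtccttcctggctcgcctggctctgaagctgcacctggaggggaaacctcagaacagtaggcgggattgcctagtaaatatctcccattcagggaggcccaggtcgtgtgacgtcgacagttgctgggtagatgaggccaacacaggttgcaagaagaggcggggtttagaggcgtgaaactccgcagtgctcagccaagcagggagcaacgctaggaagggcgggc
PSMG1 held a TGACNNNGC and a CCAAT match in a window of 71.3% G and C, PSMB5 an AAGATGG match, and PSMB8 none at 62.0%. PSMB5 and PSMB8 each have another window that is not shown. That of PSMB5, at its annotated gene start and also under H4K12la in both replicates, held CCAAT and AAGATGG. A match describes the letters only, not a bound site.

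Over all 55 promoter windows of proteasome genes, 15 held TGACNNNGC (27.3%), against 13.8% of the 22198 windows of protein-coding genes. CCGGAAG was in 18 (32.7% against 12.8%), AAGATGG in 10 (18.2% against 6.04%) and CCAAT in 24 (43.6% against 34.7%). The subsets under a peak are small. Of the 9 proteasome windows covered by HDAC1 in both replicates, 4 held TGACNNNGC, 4 CACGTG (8.34% of all windows) and 5 CCAAT. Of the 11 covered by H4K12la, 4 held TGACNNNGC and 6 CCAAT. Among the 21 without a peak in any library, 10 held CCGGAAG, 9 CCAAT and 4 TGACNNNGC. Windows of 1 gene can overlap, so these are descriptions of letters and not counts of independent promoters.

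Of the 36 conjugating enzyme genes, 5 had either target in both replicates (13.9%, 6.08% to 28.7%), near the share of 15.5% over all genes. UBE2D3, a broadly acting E2 (chr4:102794383-102868895), carried both targets, at an end shared with CISD2. Its H4K12la folds were 4.12 and 3.85 (3.99 ± 0.192, SD, n = 2) and its HDAC1 folds 4.63 and 5.62 (5.12 ± 0.697, SD, n = 2). Separate peaks lay inside UBE2D3 at internal starts in all 4 libraries, with H4K12la at 2.92 and 3.81 and HDAC1 at 5.65 and 4.90. The H4K12la replicates barely overlapped there. The peak of replicate 1 ended at chr4:102827636 and that of replicate 2 began at chr4:102827630. UBE2J1, an E2 of the endoplasmic reticulum that serves the disposal of misfolded proteins, had H4K12la at 4.09 and 4.54. UBE2D1, a close relative of UBE2D3, had 3.98 and 3.97. UBE2K, an E2 that extends ubiquitin chains, had HDAC1 at 4.44 and 4.62, with H4K12la in replicate 2 only (3.55). UBE2N, which builds lysine 63-linked chains, had only an H4K12la peak in replicate 2 (3.94).

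Of the 6 UBE2D3 windows, 1 at an internal start is shown because all 4 H4K12la and HDAC1 libraries had a peak over it (chr4:102827502-102827801, minus strand, RefSeq GRCh38.p14, CCAAT match in capitals).
UBE2D3: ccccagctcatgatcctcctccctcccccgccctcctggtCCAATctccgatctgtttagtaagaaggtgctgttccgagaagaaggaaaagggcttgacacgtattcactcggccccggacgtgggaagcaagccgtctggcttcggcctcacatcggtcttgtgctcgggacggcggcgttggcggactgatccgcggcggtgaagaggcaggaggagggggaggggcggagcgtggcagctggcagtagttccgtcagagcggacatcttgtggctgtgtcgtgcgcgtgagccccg
It held a CCAAT match and no other motif of the list. The motif was in 751 of the 1487 windows of all genes covered by HDAC1 in both replicates (50.5%), against 37.7% of those covered by H4K12la and 34.7% of all windows. Among the members the order was the other way: windows under HDAC1 held it in 11 of 23 (47.8%) and those under H4K12la in 12 of 21 (57.1%). Of the windows under HDAC1, 5 were UBE2D3's own.

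Cullin genes carried H4K12la at CUL5 and CUL2. CUL5, the scaffold of ligases with SOCS-box adaptors (chr11:108008898-108107761), had folds of 3.94 and 4.83 (4.39 ± 0.628, SD, n = 2) at its own start and no HDAC1 peak. CUL2, the scaffold of the VHL ligase, had 4.09 and 3.07 at a table end shared with CREM, and HDAC1 in replicate 2 only (4.15). The CUL2 summits of H4K12la lay -36107 and -36439 bp from its nearest promoter start. CUL1 and CUL3, the scaffolds of SCF and of BTB-adaptor ligases, had no gene-end peak in any library. CUL3 had instead a site inside the gene, 15.1 to 15.6 kb from its nearer end, with H4K12la at 3.93 and 4.07 and HDAC1 at 4.79 and 5.27, in all 4 libraries.

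Deubiquitinase genes of the USP family, which are cysteine proteases, made up 51 of the 67 and held most of the peaks. H4K12la occupied 14 of these 51 and HDAC1 13, against 10.5% and 8.18% of all genes. The smaller families had only H4K12la in both replicates: 2 of 12 OTU genes and 1 of 3 UCHL genes. Those counts are too small to set against the shares over all genes. UCHL3, which trims ubiquitin and NEDD8 precursors (chr13:75549502-75606020), had the highest H4K12la fold of all 161 genes by its lower replicate, at 6.71 and 6.50 (6.61 ± 0.145, SD, n = 2), rank 6 of 2077, under a peak it shares with COMMD6. HDAC1 was there in replicate 1 only (6.10). USP47 followed at 5.05 and 5.27 (5.16 ± 0.157, SD, n = 2), rank 141, and USP40 at 4.92 and 5.37. OTUD6B had 4.72 and 5.92 with HDAC1 in replicate 1 (5.95). OTUD7B, which cuts lysine 11-linked chains, had 4.32 and 6.83, but at a table end shared with VPS45, its summits -56851 and -56969 bp from its nearest promoter start.

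By the lower replicate, HDAC1 was highest among deubiquitinase genes at USP22, the enzyme that removes ubiquitin from histone H2B in the SAGA complex (chr17:20999596-21043419). Its folds were 6.43 and 7.78 (7.11 ± 0.960, SD, n = 2), rank 134 of 1626, with H4K12la in replicate 2 only (4.19). USP5, which recycles free ubiquitin chains, had 6.69 and 6.12 at an end shared with CDCA3. USP9X, an X-linked enzyme with many substrates, had 5.53 and 5.44, and USP1, which acts in DNA repair, had 5.79 and 5.34. Neither USP5, USP9X nor USP1 had an H4K12la peak in any library. USP7, the deubiquitinase of MDM2, and OTUB1, an inhibitor of E2 enzymes as well as a deubiquitinase, had no peak in any library.

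The promoter windows of UCHL3 (chr13:75549541-75549840, plus strand) and USP22 (chr17:21042962-21043261, minus strand) are shown because they stood highest for H4K12la and HDAC1 among deubiquitinase genes (RefSeq GRCh38.p14, motif matches in capitals).
UCHL3: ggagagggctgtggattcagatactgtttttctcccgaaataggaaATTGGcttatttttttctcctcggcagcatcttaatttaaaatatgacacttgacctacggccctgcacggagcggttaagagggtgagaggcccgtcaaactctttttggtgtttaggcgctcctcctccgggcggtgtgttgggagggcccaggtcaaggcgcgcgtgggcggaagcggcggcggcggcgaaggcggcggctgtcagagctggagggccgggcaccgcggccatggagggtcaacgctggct
USP22: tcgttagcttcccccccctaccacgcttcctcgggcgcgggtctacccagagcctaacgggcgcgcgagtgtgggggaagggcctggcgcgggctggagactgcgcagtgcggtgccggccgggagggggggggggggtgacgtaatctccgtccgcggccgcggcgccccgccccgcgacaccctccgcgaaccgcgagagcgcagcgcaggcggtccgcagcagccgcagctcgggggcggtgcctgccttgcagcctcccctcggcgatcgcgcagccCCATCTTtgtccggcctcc
The UCHL3 window held a CCAAT match on the opposite strand and was 59.3% G and C. Another UCHL3 window, not shown, lay under the same 3 libraries and held TGACNNNGC and GCGCATGCG matches. The USP22 window held an AAGATGG match on the opposite strand, after its start, and was 75.7% G and C. The median over all 22198 windows was 62.3%, and over the 188 windows of 132 members with a sequence it was 65.3%.

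**Figure D3:**
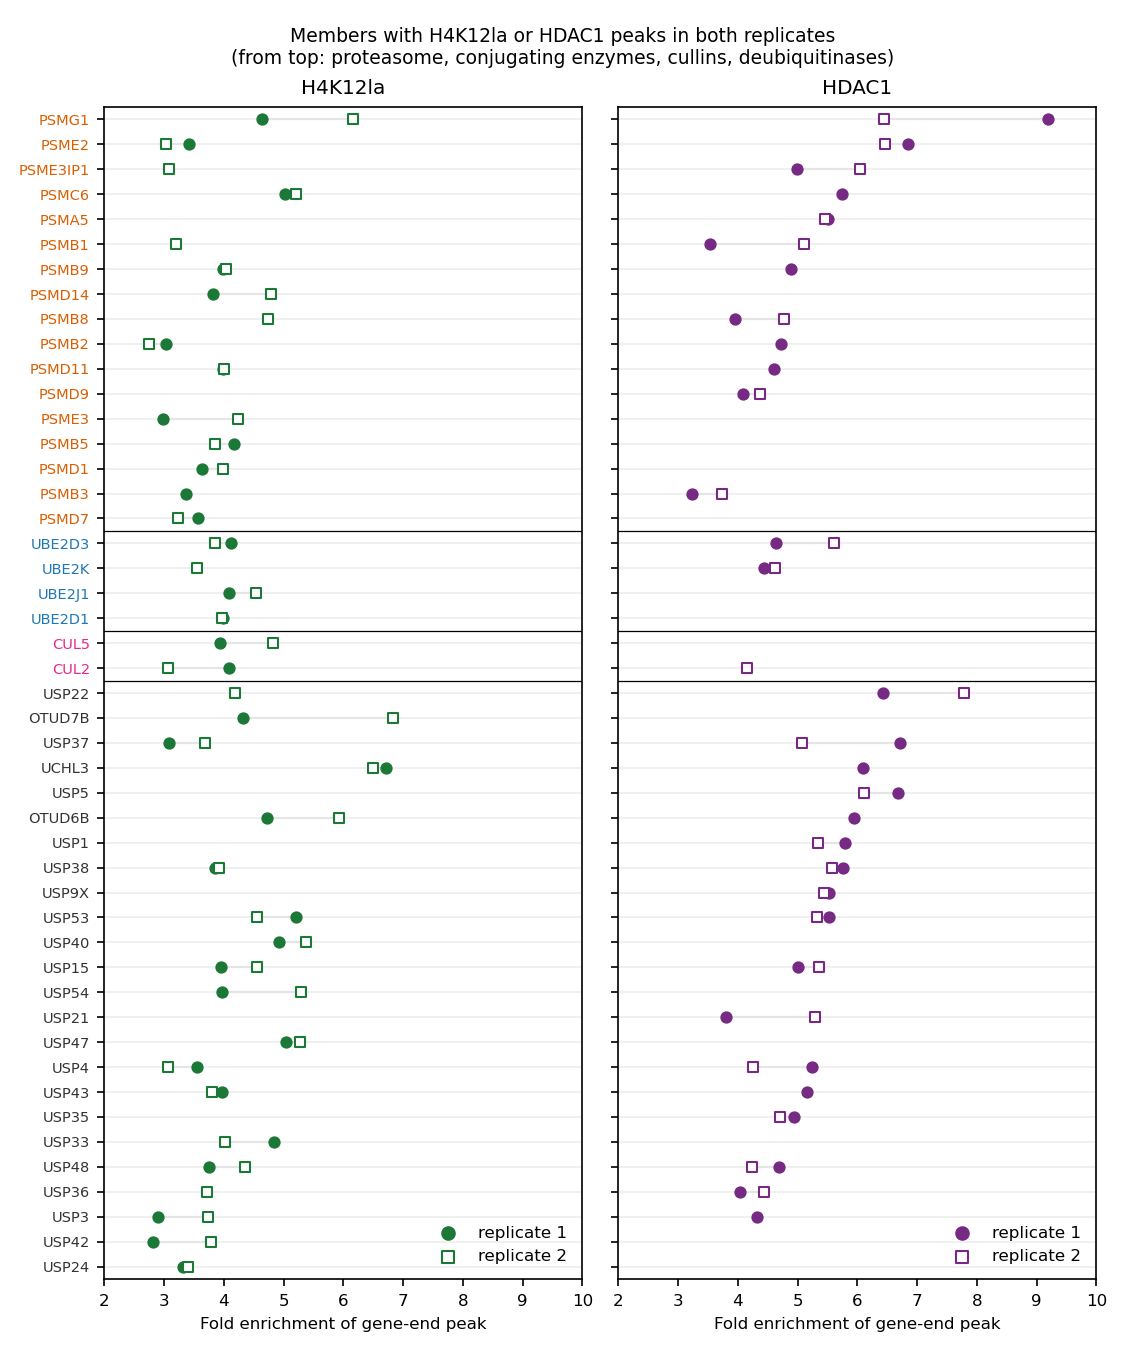
Fold enrichment of the highest gene-end peak for 47 of the 48 members with H4K12la or HDAC1 in both replicates (left H4K12la, right HDAC1); filled circles are replicate 1, open squares replicate 2, joined where both are present, and classes follow from the top as proteasome, conjugating enzymes, cullins and deubiquitinases. PSMG1 reaches the highest single value, 9.19 for HDAC1 in replicate 1, and genes with a lone symbol had a peak in that replicate only.

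The 9 genes with both targets in both replicates were PSMG1, PSME2, UBE2D3, USP48, USP37, USP4, USP53, USP38 and USP15, so 6 were deubiquitinase genes. USP53, a USP family member found at tight junctions, had H4K12la at 5.21 and 4.55 and HDAC1 at 5.53 and 5.33. USP38 had H4K12la at 3.86 and 3.92 and HDAC1 at 5.77 and 5.58. USP15, a deubiquitinase in TGF-beta signalling, had H4K12la at 3.96 and 4.55 and HDAC1 at 5.01 and 5.35, at an end shared with TAFA2. Within each target the replicate spread varied among these 9 genes. For H4K12la the SD (n = 2) ran from 0.0462 at USP38 to 1.07 at PSMG1. For HDAC1 it ran from 0.133 at USP38 to 1.94 at PSMG1. USP37 had H4K12la at 3.07 and 3.69 and HDAC1 at 6.71 and 5.07, at an end shared with CNOT9. USP48 had H4K12la at 3.75 and 4.35 and HDAC1 at 4.69 and 4.23. USP4 had H4K12la at 3.55 and 3.07 and HDAC1 at 5.24 and 4.25. At all 9 genes the H4K12la and HDAC1 peaks of the same replicate number shared 154 to 754 bp, and their summits lay 2 to 692 bp apart.

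Support for only 1 of the targets was often incomplete. Of the 24 genes called for H4K12la only, 9 had HDAC1 in a single replicate and 15 in none. Of the 15 called for HDAC1 only, 7 had H4K12la in a single replicate and 8 had none. Deubiquitinase genes with H4K12la that have not been named were USP24, USP33, USP42, USP54, USP3 and USP43, with lower-replicate folds from 2.82 to 4.02. Those with HDAC1 were USP21, USP35 and USP36, from 3.81 to 4.70. USP21, which had HDAC1 at 3.81 and 5.29, had it at its 3′ end beside PPOX, and USP35 shared its peak with KCTD21.

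Most peaks lay at the 5′ end, as at other occupied genes. Strand and starts were known for 27 of the 33 members with H4K12la, and in both replicates all 27 had the peak at the 5′ end, where 96.5% and 96.8% of all occupied genes did. For OTUD7B and CUL2 that end was far from the nearest promoter start, as given above. For HDAC1 this was 18 of 19 in both replicates, against 92.9% and 93.0%, the exception being USP21. H4K12la summits had medians 15 and 66 bp upstream of the nearest start (-15 and -66 bp; all occupied genes 43 and 30 bp). HDAC1 summits lay further upstream, at -184 and -175 bp (all genes -141 and -141 bp). Peaks were 567 and 763 bp wide at the median for H4K12la and 696 and 502 bp for HDAC1.

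**Figure D4:**
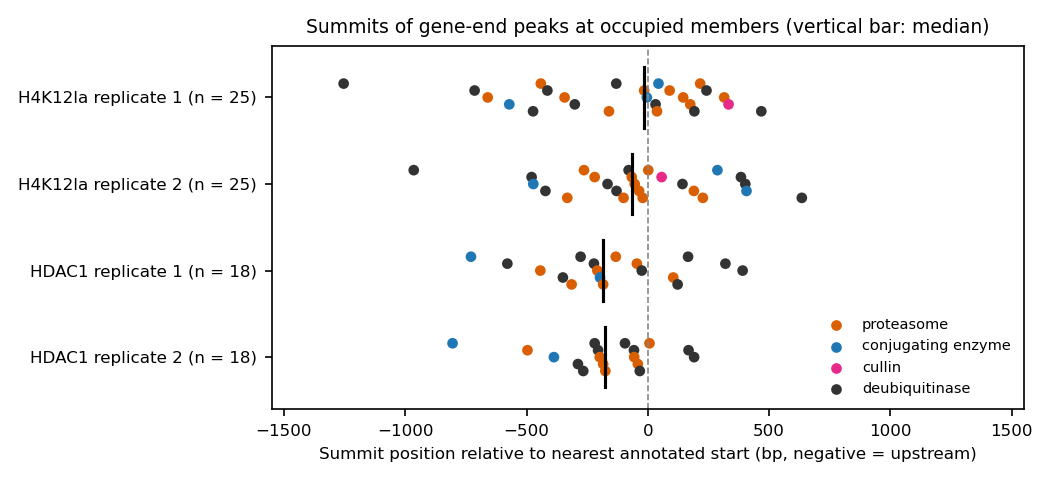
Distance of peak summits from the nearest annotated start, in bp (negative is upstream), for occupied members with a start in the promoter table, 1 row for each H4K12la and HDAC1 library; OTUD7B and CUL2, with summits far from a start, and USP21 at its 3′ end are left out, and bars mark medians. H4K12la summits spread on both sides of the start, with medians of -15 and -66 bp over all members with a start, while HDAC1 summits lie mostly upstream.

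Shared peaks with a neighbouring gene were about as common as elsewhere. Of the 33 H4K12la members, 10 had a peak that also counted for another protein-coding gene (30.3%, against 37.2% of all occupied genes), and of the 24 HDAC1 members 12 did (against 44.9%). Which of the paired genes a peak belongs to cannot be told apart. Gene length did not move with occupancy in 1 direction. Members had a median length of 38.8 kb and those with H4K12la 74.5 kb, where all protein-coding genes had 24.5 kb and all with H4K12la 42.1 kb. Members with HDAC1 had 36.3 kb, and deubiquitinase genes with HDAC1 54.1 kb. Proteasome genes were short (13.6 kb) and those with H4K12la 10.4 kb, while deubiquitinase genes were long (59.0 kb) and those with H4K12la 90.0 kb. The part of length in the counts was not tested.

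ENO1 had no gene-end peak at any of the 161 genes in either replicate, where 0.166% and 0.101% of all genes had one in replicates 1 and 2. A count of 0 of 161 allows a share of up to 1.86% (3 counts of 161), which lies above both backgrounds, so no lack of ENO1 peculiar to these genes was detectable. Nor did an ENO1 peak fall anywhere within a member or 1 kb around it, where 0.458% of all genes had one in both replicates. The nearest ENO1 peak lay a median of 2070 kb from a member in replicate 1 and 3120 kb in replicate 2. The closest was 26.6 kb from UBE2S, an E2 of the anaphase-promoting complex, with folds of 8.39 and 7.23. USP17L11, one of 25 near-identical USP17L genes that the rule leaves out, did carry ENO1 in both replicates, and HDAC1 as well. Reads may be shared among such copies.

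The other genes of the ubiquitin system, a list of 135, had shares of the same order: 26 with H4K12la (19.3%) and 25 with HDAC1 (18.5%), 8 with both and none with ENO1. Of 16 genes of the anaphase-promoting complex, a cell-cycle ligase, 6 had H4K12la and 4 had HDAC1, where 10.5% and 8.18% of all genes did. CDC27, one of its subunits, had both, with H4K12la at 4.67 and 5.72 and HDAC1 at 8.25 and 5.96. UBA6, one of the activating enzymes, had H4K12la at 4.32 and 4.06 and HDAC1 at 5.86 and 4.50. For the cullin ligases, CAND1, which exchanges their adaptors, and SPOP, a CUL3 adaptor, had both targets, and RBX1, their RING subunit, had HDAC1 at 7.83 and 6.67. Of 9 COP9 signalosome genes, which take NEDD8 off cullins, none had H4K12la in both replicates and 2 had HDAC1 (COPS4 and COPS7A). These numbers are too small to set against those shares. In a single replicate, H4K12la lay at COPS2, COPS4, COPS5, COPS7A and COPS8, and HDAC1 at COPS2, COPS3 and COPS7B. NFE2L1 and NFE2L2, transcription factors that drive proteasome and antioxidant genes, had HDAC1 at 5.44 and 2.998, and at 4.00 and 3.89.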

How the data were processed

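CUT&Tag peak lists from HepG2 cells were used, 1 per library. Per the submitters' processing notes, FastQC, Bowtie2, MACS2 and deepTools were used with build hg38; the sources used here do not give versions, settings or use of a control. The deposited lists give each peak's fold enrichment (a ratio within its library, not scaled between libraries) and the -log10 of its p-value and q-value, with a score made from the latter, and end at a q-value of 0.01. Depth is unknown.

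Genes came from RefSeq GRCh38.p14, leaving out 718 entries on alternate or unplaced sequences. A gene was occupied when both replicates had a peak overlapping, by at least 1 bp, 1 kb around either annotated end. Starts and strand came from the RefSeq promoter table. Shares have Wilson 95% intervals (scipy 1.17.1, pandas 2.3.3), and a count of 0 an upper limit of 3 counts; no test was made. The scoring was tested on simulated data. Members and lists were chosen with earlier results of these data known. Named were the 6 highest occupied genes per class and target by the lower replicate, all genes with both targets, 10 standing names and neighbours sharing their peaks; other genes given with values were named after those were seen. The values of 1 gene are not reported here. Alternatives varied the window, overlap, peak threshold, list length, start, replicates and membership.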

Additional observations from a re-analysis of the deposited data

How the results depend on the processing

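With 500 bp windows, with summits inside the window, with members under 1 peak counted once, and without the symbol-only matches (chosen after seeing the data), every count stayed within 1.5 times. ENO1 stayed at 0 in every class under every alternative. With a -log10 q of 5 or more, H4K12la fell to 19 members, 7 proteasome, 0 cullin and 10 deubiquitinase genes, and HDAC1 to 5 proteasome genes, while the shares over all genes fell to 6.11% and 6.31%. With only the 1189 strongest peaks per library, as many as the shortest list holds, H4K12la kept 4 members (1 proteasome, 0 conjugating, 0 cullin and 3 deubiquitinase genes) and HDAC1 4 (2 proteasome, 0 conjugating and 2 deubiquitinase genes), with 0 under both, where 0.836% and 0.961% of all genes remained. At annotated starts only, H4K12la counts were 1 cullin and 11 deubiquitinase genes, where 9.42% of all genes were occupied. CUL2 and OTUD7B were lost because their peaks lie far from their nearest starts, and other deubiquitinase genes because they have no start in the table. Genes without a start also count as not occupied in the share over all genes. Proteasome counts rose, to 13 for H4K12la and 9 for HDAC1.

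Counting a peak in at least 1 replicate gave H4K12la 63 members (25 proteasome, 10 conjugating and 4 cullin genes), HDAC1 47 (19 proteasome, 6 conjugating, 1 cullin and 21 deubiquitinase genes) and 32 with both, against 22.5% and 16.8% of all genes. Leaving out each replicate in turn gave these ranges. H4K12la had 40 to 56 members, where 13.5% to 19.5% of all genes had it. By class these were 13 to 23 proteasome and 5 to 8 conjugating genes, the higher without replicate 1. HDAC1 had 26 to 45 members, where 10.1% to 14.8% of all genes had it. Its classes held 8 to 19 proteasome, 3 to 6 conjugating, 0 to 1 cullin and 14 to 20 deubiquitinase genes. All HDAC1 counts were higher without replicate 2 except the cullin. Both targets together had 17 to 19. Means of both replicates gave median folds of 4.01 (H4K12la) and 5.15 (HDAC1). No paired analysis was possible because the results come from no test. Lists without depth limit what absence shows.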

Other observations

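Some members had peaks at annotated starts that lie inside the gene, out of reach of the rule on gene ends. PSMA1, an alpha subunit of the 20S barrel, had at its annotated start H4K12la folds of 4.61 and 4.69 and HDAC1 folds of 7.09 and 5.53, but its table end had a peak of H4K12la in replicate 2 only (3.15), with a summit -123573 bp from that start. PSMF1, an inhibitor of the proteasome, had H4K12la at 2.995 and 3.49 and HDAC1 at 3.61 and 4.28 at an internal start. UBE2E1, an E2, had H4K12la at 4.43 and 3.57 at an internal start, and UCHL5, a deubiquitinase of the 19S cap, had 3.19 and 3.10. These 4 genes would join those with H4K12la, and PSMA1 and PSMF1 those with both targets.

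Counting peaks anywhere within a gene or 1 kb around it gave H4K12la in both replicates at 42 members (26.1%, against 14.8% of all genes) and HDAC1 at 29 (18.0% against 11.0%). Among those added, USP49 had H4K12la at 4.97 and 4.94 at a site inside the gene, 48.5 and 48.6 kb from its nearer end. UBE2H had HDAC1 at 5.39 and 4.47, 3.70 and 3.75 kb inside. At USP34 and USP25 for H4K12la, and at CUL2 for HDAC1, the replicates' peaks did not overlap each other.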
